A study of Saccharomyces cerevisiae with 20 samples.

Results

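YAL004W, YLR217W and YGL074C are short features of the yeast annotation whose systematic names place each of them beside a gene of the heat shock response on the other strand. YAL004W lies opposite SSA1, YLR217W opposite CPR6 and YGL074C opposite HSF1. They were chosen by name, as 3 of the 7127 features for which counts were listed, and 683 of those features are open reading frames (ORFs) that a RefSeq gene table does not hold. All 3 belong to that set of 683. Feature lengths in the deposited tables were 648 nt for YAL004W, 324 nt for YLR217W and 327 nt for YGL074C.

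In yeast the transcription factor Hsf1 binds heat shock elements and drives the genes of most cytosolic chaperones. Ssa1 is a cytosolic Hsp70 that folds new and damaged proteins and also holds Hsf1 inactive when chaperones are in excess. Cpr6 is a peptidyl-prolyl isomerase that works with Hsp90 as a cochaperone, and its gene is a target of Hsf1.

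Ribosome profiling was carried out on Saccharomyces cerevisiae that the labels describe as fmt1 cells, grown in synthetic complete medium at 30 °C to an A600 of about 0.5. FMT1 is the yeast gene for the mitochondrial methionyl-tRNA formyltransferase, which formylates methionine once it is loaded on the initiator tRNA of mitochondria. The cells expressed the E. coli enzyme (EcFMT) or its R42L form, and the series asks how formylation bears on translation. RNA fragments protected from RNase I in 80S ribosomes were sequenced in 20 libraries, 2 for each of 10 groups.

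In 16 libraries EcFMT or R42L was combined with 1 of 4 strain labels, RLI1_depl, NIP1_depl, hrc1D and arf1D. RLI1 encodes an ATPase that splits ribosomes after termination, NIP1 a subunit of initiation factor eIF3, and ARF1 a small GTPase of vesicle traffic. The label hrc1D is kept as it is spelled, and the labels do not say how RLI1 or NIP1 was depleted or to what level. Both hrc1D and arf1D are read here as gene deletions, which the labels do not spell out. Strains are set against arf1D below, but it is not labelled a control. The remaining 4 libraries are labelled MTF or MTFi, names the labels do not spell out, and carry no strain label. Whether the replicates came from separate cultures is not stated in the labels, so the p-values speak of the spread among these libraries, which may be technical. RNA sequencing of the series was not analysed here, so a change in footprints and a change in transcript level cannot be told apart.

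Library totals ran from 58090 to 505676 expected counts, and were lowest in RLI1_depl and highest in arf1D. Of all 4993355 counts, 95.99% lay on ORF features outside RefSeq. The share on RefSeq ORFs moved with the strain, with a mean of 18.2% in RLI1_depl, 9.79% in NIP1_depl, 3.65% in hrc1D, 1.52% in arf1D and 1.29% in MTF and MTFi. Which strand the counting step took as sense is nowhere stated in the sources used. Counts under these 3 names are therefore given as counts of the feature, and whether they stem from the gene opposite was not tested.

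The genes opposite had almost no counts under their own names. SSA1 (YAL005C, R64 chromosome I, 139503 to 141431) was listed at 0 in 20 of 20 libraries, which allows a share of up to 6.01e-05% of all counts. YAL004W held 136378 counts, or 2.73% of all counts. SSA1 has a near-identical copy, SSA2, so reads shared between the copies cannot be told apart. Under its own name SSA2 was likewise listed at 0 counts over the 20 libraries.

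CPR6 (YLR216C, chromosome XII, 572096 to 573211) had 6 counts over 20 libraries, all of them in 4 libraries. YLR217W held 12822 counts, or 0.257% of all. The RefSeq genes on its sides, CPR6 and COA4, lie 254 nt apart, less than the 324 nt of the feature, so YLR217W must overlap at least 1 of them.

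HSF1 (YGL073W, chromosome VII, 368753 to 371254) was the exception, with 185 counts in 18 of 20 libraries. YGL074C held 992 counts, or 0.0199% of all. Coordinates of the 3 features are not used here, and the overlap of YAL004W and of YGL074C with the gene opposite rests on the order of names and on general knowledge of the yeast genome.

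Per unit of length the order of the features was the same in every strain. In RLI1_depl YAL004W averaged 7660 ± 353 TPM, YLR217W 5981 ± 484 TPM and YGL074C 917 ± 149 TPM (SD, n = 4 libraries). In arf1D YAL004W averaged 18836 ± 178 TPM, YLR217W 2841 ± 255 TPM and YGL074C 101 ± 7.16 TPM (SD, n = 4). The TPM values are the authors' own. YAL004W therefore stood close to YLR217W in RLI1_depl and far above it in arf1D.

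The share of YAL004W in its library was lowest in RLI1_depl. It was 1.21 and 1.31% in the EcFMT libraries and 1.29 and 1.23% in the R42L libraries of RLI1_depl. In NIP1_depl it was 1.49 and 1.44% with EcFMT and 1.36 and 1.34% with R42L. All 8 of these libraries lay below the other 12.

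In hrc1D, YAL004W took 4.11 and 4.04% of the counts with EcFMT and 3.48 and 3.41% with R42L. In arf1D the share was 2.58 and 2.61% with EcFMT and 2.56 and 2.58% with R42L. It was 3.66 and 2.68% in the MTF libraries and 3.13 and 3.12% in the MTFi libraries. The highest group, hrc1D with EcFMT, did not overlap any other group, whereas the MTF replicates spanned both MTFi libraries.

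The 95% Wilson interval of the share ran from 1.204 to 1.388% in the shallowest library, RLI1_depl R42L replicate 1, and from 2.54 to 2.63% in the deepest, arf1D EcFMT replicate 1. Such intervals cover counting error only. Ordered by group mean, neighbours whose replicates overlapped were RLI1_depl EcFMT and R42L, MTFi and MTF, and MTF and hrc1D R42L.

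YLR217W had the opposite end of its range in RLI1_depl. It took 0.473 and 0.422% of the counts with EcFMT and 0.482 and 0.499% with R42L in RLI1_depl. In NIP1_depl it took 0.304 and 0.300% with EcFMT and 0.309 and 0.317% with R42L. RLI1_depl held the highest shares of this feature, and no other group reached its lowest library.

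In hrc1D, YLR217W took 0.394 and 0.365% with EcFMT and 0.374 and 0.320% with R42L. In arf1D it took 0.171 and 0.209% with EcFMT and 0.187 and 0.178% with R42L. The share was 0.218 and 0.198% in MTF and 0.204 and 0.191% in MTFi. The arf1D, MTF and MTFi libraries overlapped each other and lay below every library of the other strains.

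YGL074C, with 10 to 98 counts per library, spanned the widest range of the 3. It took 0.0734 and 0.0690% of the counts with EcFMT and 0.0878 and 0.0604% with R42L in RLI1_depl. In NIP1_depl it took 0.0429 and 0.0691% with EcFMT and 0.0591 and 0.0560% with R42L. In hrc1D it took 0.0221 and 0.0237% with EcFMT and 0.0238 and 0.0182% with R42L. These are steps down from RLI1_depl and NIP1_depl, which overlapped each other, to hrc1D.

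The arf1D libraries came lower still, at 0.0065 and 0.0074% with EcFMT and 0.0064 and 0.0065% with R42L. The MTF libraries held 0.0032 and 0.0115% and the MTFi libraries 0.0052 and 0.0069%. The 10 counts of MTF replicate 1 give a 95% Wilson interval of 0.00175 to 0.00592%, which does not reach the 0.0085 to 0.0155% of MTF replicate 2. The MTF pair thus differed by more than counting error, while the arf1D libraries lay close together.

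**Figure D1:**
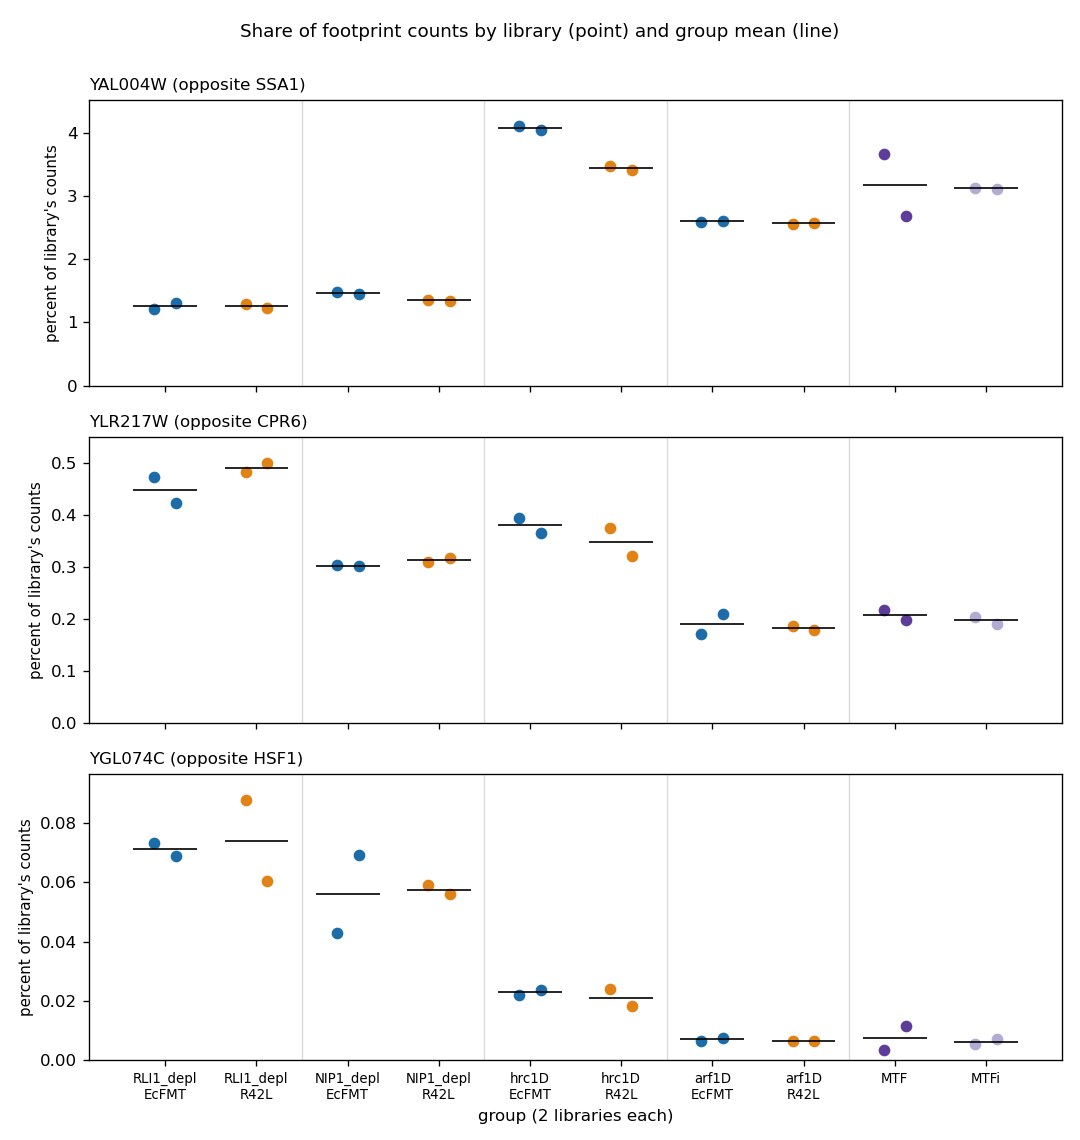
Percent of each library's footprint counts on YAL004W, YLR217W and YGL074C (vertical axes, linear from 0), by group; a point is a library and a line is the mean of 2 libraries. YAL004W was lowest in RLI1_depl, at 1.21 to 1.31%, where YLR217W and YGL074C were highest.

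The enzyme form was compared within each strain, with edgeR's quasi-likelihood test over 1399 features and Benjamini-Hochberg adjustment, on library totals, so that a log2 difference is a ratio of shares. None of the 3 features was called at an adjusted p under 0.05 in any strain. The call rate over all features was 0% in arf1D, in hrc1D and in NIP1_depl, 2.64% in RLI1_depl and 0.357% for the mean of the 4 strains. In arf1D 42 features, in hrc1D 76 and in NIP1_depl 46 had an unadjusted p under 0.05, and DESeq2 called 0 in each of these strains.

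YAL004W showed the clearest separation of the forms, in hrc1D. Its share averaged 4.07 ± 0.046% with EcFMT and 3.44 ± 0.047% with R42L (SD, n = 2), a log2 difference of 0.24 (SE 0.07, 95% interval 0.09 to 0.39). The edgeR unadjusted p was 0.000357 and the adjusted p 0.166, so the feature was not called. It also lay higher with EcFMT, with no overlap, in NIP1_depl at a log2 difference of 0.12 (SE 0.07) and in arf1D at 0.02 (SE 0.07), both with an edgeR adjusted p of 1. Ranges of 2 against 2 libraries often part where there is no difference. How many other features part in this way was not counted, here or for the forms below.

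In RLI1_depl the YAL004W replicates of both forms overlapped. The mean over the 4 strains was 0.09 (SE 0.04) on the log2 scale, with an edgeR adjusted p of 0.480. An exact permutation test that reassigned the forms within strains gave a two-sided p of 0.0231 over 1296 splits, or 0.0694 adjusted over the 3 features. With counts on features outside RefSeq as the denominator, the same exact test gave 0.103, or 0.310 adjusted. An F test in edgeR that the difference is equal in the 4 strains gave an adjusted p of 0.602 for YAL004W, at a call rate of 0.929% over all features.

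YLR217W differed between the forms by no more than 0.14 on the log2 scale in any strain, on library totals. In hrc1D it averaged 0.380 ± 0.020% with EcFMT and 0.347 ± 0.038% with R42L (SD, n = 2), and the replicates overlapped. It lay lower with EcFMT, without overlap, in RLI1_depl, where the log2 difference was -0.14 (95% interval -0.39 to 0.11), and in NIP1_depl, at -0.05 (-0.30 to 0.19), but with TMM these were 0.15 and 0.04. The mean of the 4 strains was -0.00 (SE 0.05), with an edgeR adjusted p of 1.000 and an exact permutation p of 0.992.

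YGL074C, the feature with the fewest counts, had the widest intervals. The log2 difference of EcFMT from R42L was -0.01 in RLI1_depl (95% interval -0.54 to 0.52) and -0.06 in NIP1_depl (-0.55 to 0.44). It was 0.11 in hrc1D (-0.48 to 0.70) and 0.10 in arf1D (-0.59 to 0.80). The mean of the 4 strains was 0.04 (SE 0.13), with an edgeR adjusted p of 1.000 and an exact permutation p of 0.762. The 95% interval of that mean ran from 0.84-fold to 1.26-fold. In arf1D the replicates did not overlap, and in the other 3 strains they did.

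MTF and MTFi were compared in the same fit, in which 2.79% of features were called and none of the 3. For YLR217W the log2 difference was 0.08 (SE 0.10) and for YGL074C 0.29 (SE 0.33). The SEs in this comparison rest on a spread shared by the 10 groups, so they do not hold that of the MTF pair. In that pair the YAL004W shares were 3.66 and 2.68%. YAL004W averaged 3.17 ± 0.69% in MTF and 3.12 ± 0.008% in MTFi (SD, n = 2), a log2 difference of 0.02 (SE 0.07). The value depended on the MTF replicate: it was -0.22 without MTF replicate 1 (edgeR adjusted p = 0.0309) and 0.23 without MTF replicate 2 (edgeR adjusted p = 0.0157). Each of these fits leaves 1 MTF library, which is assumed to vary like the other groups, so the p-values do not hold the spread of the MTF pair. The MTF replicates were also the least alike of the 10 pairs, with a chi-square of 8.59 per degree of freedom over features, against 1.46 to 2.88 in the other groups. The part of that disagreement in the comparison was not tested.

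**Figure D2:**
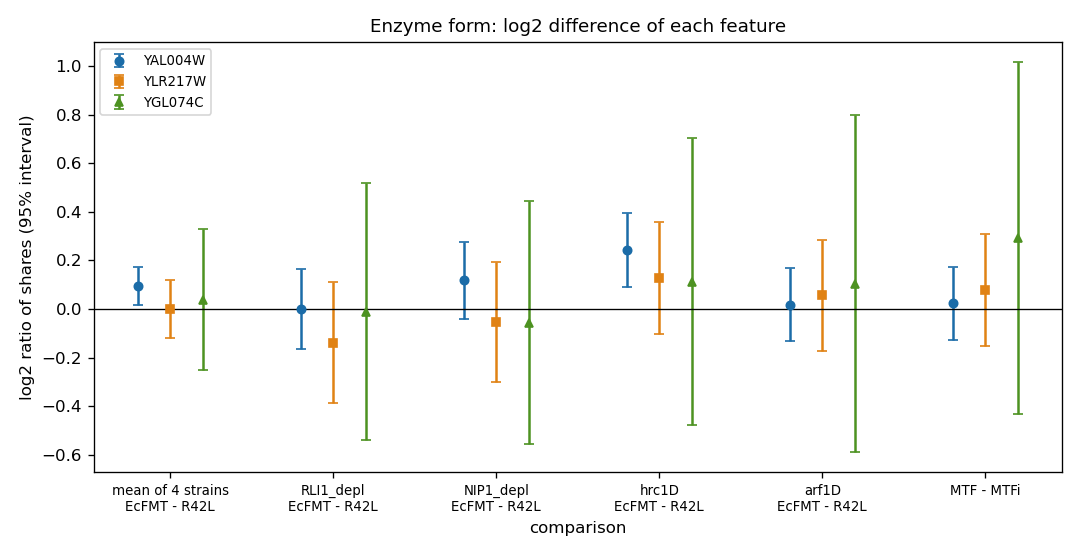
Log2 difference of each feature between EcFMT and R42L in each strain and over the 4 strains, and between MTF and MTFi (vertical axis, log2 ratio of shares). The 95% intervals used the SE of the edgeR fit with 10 residual degrees of freedom. The spread behind them is shared by the 10 groups and does not hold that of the MTF pair alone. The YAL004W interval in hrc1D ran from 0.09 to 0.39 without an adjusted call, and YGL074C had the widest intervals.

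Most differences between strains were larger in size than those between the enzyme forms. Against arf1D, the share of YAL004W fell in RLI1_depl and in NIP1_depl, that of YGL074C rose in both, and that of YLR217W depended on how libraries were scaled. The 3 strain differences from arf1D share the arf1D libraries, so they are given side by side and not as separate evidence. In RLI1_depl minus arf1D 90.1% of all features were called higher and 4.22% lower, in NIP1_depl minus arf1D 74% and 6.93%, and in hrc1D minus arf1D 44.9% and 5.5%. The median log2 difference of all features was 4.31, 3.14 and 1.29 in the same order, so the median feature had a raised share in each. With TMM factors 51.5% were called higher and 21.8% lower in RLI1_depl minus arf1D, 40.6% and 21.8% in NIP1_depl minus arf1D, and 18.7% and 16.8% in hrc1D minus arf1D. In the fit of features outside RefSeq alone 80.5% were called in RLI1_depl minus arf1D, 80.5% in NIP1_depl minus arf1D and 68.9% in hrc1D minus arf1D.

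YAL004W averaged 1.26 ± 0.048% in RLI1_depl, 1.41 ± 0.070% in NIP1_depl, 3.76 ± 0.365% in hrc1D and 2.58 ± 0.023% in arf1D (SD, n = 4). Its log2 difference from arf1D was -1.04 (SE 0.05) in RLI1_depl, with an edgeR adjusted p of 1.31e-89. With TMM factors it was -3.81, with RLE -2.80 and in a fit of the features outside RefSeq alone -2.57. Among the other features outside RefSeq, 414 had a higher and 22 a lower difference in that comparison. YAL004W thus fell under each of 4 scalings and was near the low end of its class.

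In NIP1_depl minus arf1D, YAL004W fell by 0.88 on the log2 scale (SE 0.05, edgeR adjusted p = 1.03e-67), and the difference was -3.08 with TMM, -2.24 with RLE and -2.08 in the fit outside RefSeq. In hrc1D minus arf1D its share rose by 0.54 (SE 0.05, edgeR adjusted p = 1.67e-27), but the difference was -0.57 with TMM and -0.21 with RLE, both called, and -0.07 in the fit outside RefSeq. Between RLI1_depl and NIP1_depl it was -0.16 (SE 0.05, edgeR adjusted p = 0.00471), a call lost without either of 2 RLI1_depl libraries, EcFMT replicate 1 (edgeR adjusted p = 0.0594) and R42L replicate 2 (edgeR adjusted p = 0.0511). Against hrc1D, the mean share of YAL004W was 0.335 times as high in RLI1_depl and 0.374 times as high in NIP1_depl, and it was called lower under each of the 4 scalings.

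YLR217W averaged 0.469 ± 0.033% in RLI1_depl, 0.308 ± 0.007% in NIP1_depl, 0.363 ± 0.031% in hrc1D and 0.186 ± 0.017% in arf1D (SD, n = 4). Its share was 2.52 times that of arf1D in RLI1_depl, a log2 difference of 1.33 (SE 0.08, edgeR adjusted p = 2.52e-66) that turned to -1.44 with TMM, -0.43 with RLE and -0.20 in the fit outside RefSeq. In NIP1_depl minus arf1D the difference was 0.73 on library totals (edgeR adjusted p = 5.79e-21), against -1.48, -0.63 and -0.47 under those scalings. In hrc1D minus arf1D it was 0.97 (edgeR adjusted p = 6.67e-38), against -0.14, 0.22 and 0.35. No direction for YLR217W between strains holds under all 4 scalings in these 3 comparisons, and among features outside RefSeq it lay near the middle, with 253 features higher and 183 lower in RLI1_depl minus arf1D.

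YGL074C averaged 0.0726 ± 0.011% in RLI1_depl, 0.0568 ± 0.011% in NIP1_depl, 0.0220 ± 0.003% in hrc1D and 0.0067 ± 0.0005% in arf1D (SD, n = 4). The log2 difference from arf1D was 3.41 (SE 0.19) in RLI1_depl, 3.07 (SE 0.18) in NIP1_depl and 1.71 (SE 0.20) in hrc1D, with edgeR adjusted p of 6.92e-70, 1.17e-60 and 4.94e-16. The lowest value under another scaling was with TMM in each case, at 0.64, 0.87 and 0.61, all called. YGL074C thus rose in the 3 strains under each of 4 scalings. Its rise on library totals was smaller than the median of all features in RLI1_depl and in NIP1_depl, but above the median of features outside RefSeq, which was 1.74 in RLI1_depl, 1.08 in NIP1_depl and 0.57 in hrc1D. Of the other features outside RefSeq, 78 were higher and 358 lower than YGL074C in RLI1_depl, 73 and 363 in NIP1_depl, and 78 and 358 in hrc1D. Between RLI1_depl and NIP1_depl the difference was 0.34 (SE 0.16, edgeR adjusted p = 0.0722), not called, and it was -0.22 with TMM. Leaving out NIP1_depl EcFMT replicate 2 gave 0.52 (edgeR adjusted p = 0.0155), and leaving out RLI1_depl R42L replicate 2 gave 0.49 (edgeR adjusted p = 0.0305).

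Between the strains other than arf1D, 78.5% of features were called higher and 3.86% lower in RLI1_depl minus hrc1D, 56.9% and 7.36% in NIP1_depl minus hrc1D, and 41% and 9.29% in RLI1_depl minus NIP1_depl. With TMM factors these rates were 35.2% and 22.4%, 25.7% and 20%, and 23.8% and 18.9%. YLR217W was lower in NIP1_depl than in hrc1D under each of 4 scalings, at -0.24 on library totals (edgeR adjusted p = 0.00313), and its difference of RLI1_depl from hrc1D was 0.37 on library totals and -1.30 with TMM. YGL074C was higher than in hrc1D by 1.69 in RLI1_depl and by 1.36 in NIP1_depl on the log2 scale, with 0.03 and 0.26 under TMM, neither called.

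**Figure D3:**
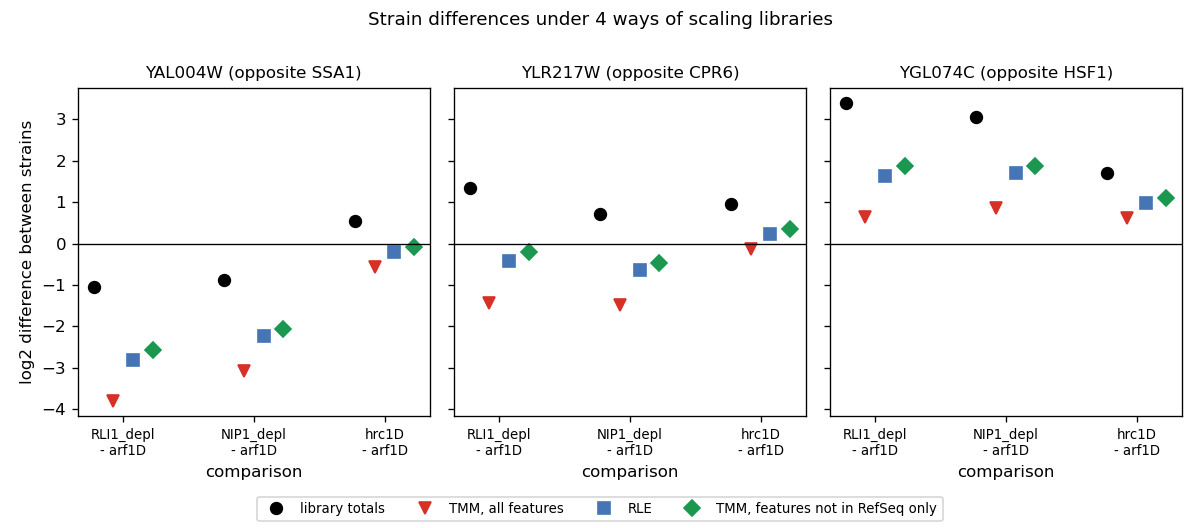
Log2 difference of each strain from arf1D (vertical axis) for the 3 features, under 4 ways of scaling libraries (symbols). YAL004W lay below 0 in RLI1_depl and NIP1_depl, at -1.04 and -0.88 on library totals, YGL074C lay above 0 throughout, and YLR217W changed sign with the scaling.

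Each strain was also set against MTF and MTFi, which were labelled apart, so that the strain and the set of libraries cannot be told apart. YAL004W averaged 3.15 ± 0.401% over MTF and MTFi (SD, n = 4), and its log2 difference from them was -1.32 in RLI1_depl, -1.16 in NIP1_depl, 0.25 in hrc1D and -0.29 in arf1D, all called by edgeR on library totals. These calls rest on a spread shared by the 10 groups, which does not hold that of the MTF pair alone. The call rates were 91.1% higher and 3.57% lower in RLI1_depl, 75.6% and 5.65% in NIP1_depl, 48% and 4.07% in hrc1D, and 8.72% and 2.72% in arf1D. With TMM factors they were 52.8% and 19.9%, 42.7% and 19.9%, 21.3% and 13.9%, and 7.22% and 2.43%. The difference in hrc1D was -0.48 to -0.87 under the other scalings, and that in arf1D was not called when only these libraries were fitted (edgeR adjusted p = 0.0782). YLR217W gave 1.21 in RLI1_depl, 0.60 in NIP1_depl and 0.84 in hrc1D on library totals, all called, and -1.57, -1.62 and -0.27 with TMM. YGL074C rose by 3.36 in RLI1_depl, 3.03 in NIP1_depl and 1.67 in hrc1D on the log2 scale, was higher under each of 4 scalings, and was -0.04 in arf1D, not called.

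Ratios of 2 features within a library do not depend on the scaling. YLR217W had 37.4 ± 3.63 counts per 100 counts of YAL004W in RLI1_depl, 21.9 ± 1.55 in NIP1_depl, 9.69 ± 0.75 in hrc1D and 7.21 ± 0.60 in arf1D (SD, n = 4). It had 6.49 ± 0.64 in MTF and MTFi. The ranges of the 4 strains did not overlap, and the geometric mean ratio was 5.18 times as high in RLI1_depl as in arf1D. Each of the 6 pairs of strains gave a two-sided exact permutation p of 0.0286, the smallest that 4 against 4 libraries allow, or 0.0303 adjusted over the 18 tests of ratios.

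YGL074C had 5.77 ± 0.84 counts per 100 counts of YAL004W in RLI1_depl, 4.05 ± 0.82 in NIP1_depl, 0.586 ± 0.070 in hrc1D and 0.260 ± 0.016 in arf1D (SD, n = 4). The geometric mean ratio was 22.1 times as high in RLI1_depl, and 15.4 times as high in NIP1_depl, as in arf1D. The exact permutation p was again 0.0286 in each of the 6 pairs. Relative to YLR217W, the counts of YGL074C per 100 were 15.5 ± 2.56 in RLI1_depl, 18.5 ± 3.66 in NIP1_depl, 6.04 ± 0.45 in hrc1D and 3.61 ± 0.16 in arf1D (SD, n = 4). Here RLI1_depl and NIP1_depl overlapped (exact permutation p = 0.286), and the other 5 pairs gave 0.0286.

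The 3 features therefore changed their proportions between strains. In the fit of features outside RefSeq alone 80.5% were called in RLI1_depl minus arf1D, 80.5% in NIP1_depl minus arf1D and 68.9% in hrc1D minus arf1D. Ratios of other pairs of features were not examined, so the change is not shown to be particular to these 3. Relative to arf1D and to hrc1D, YAL004W lost ground to both others in RLI1_depl and NIP1_depl, and YGL074C gained on YLR217W in both. Between the enzyme forms the ratio of YLR217W to YAL004W differed by -0.17 on the log2 scale in NIP1_depl without overlap, and overlapped in the other 3 strains. The ratio of YGL074C to YAL004W differed by 0.09 in arf1D without overlap, and overlapped in the other 3 strains. The ratio of YGL074C to YLR217W overlapped in all 4 strains.

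**Figure D4:**
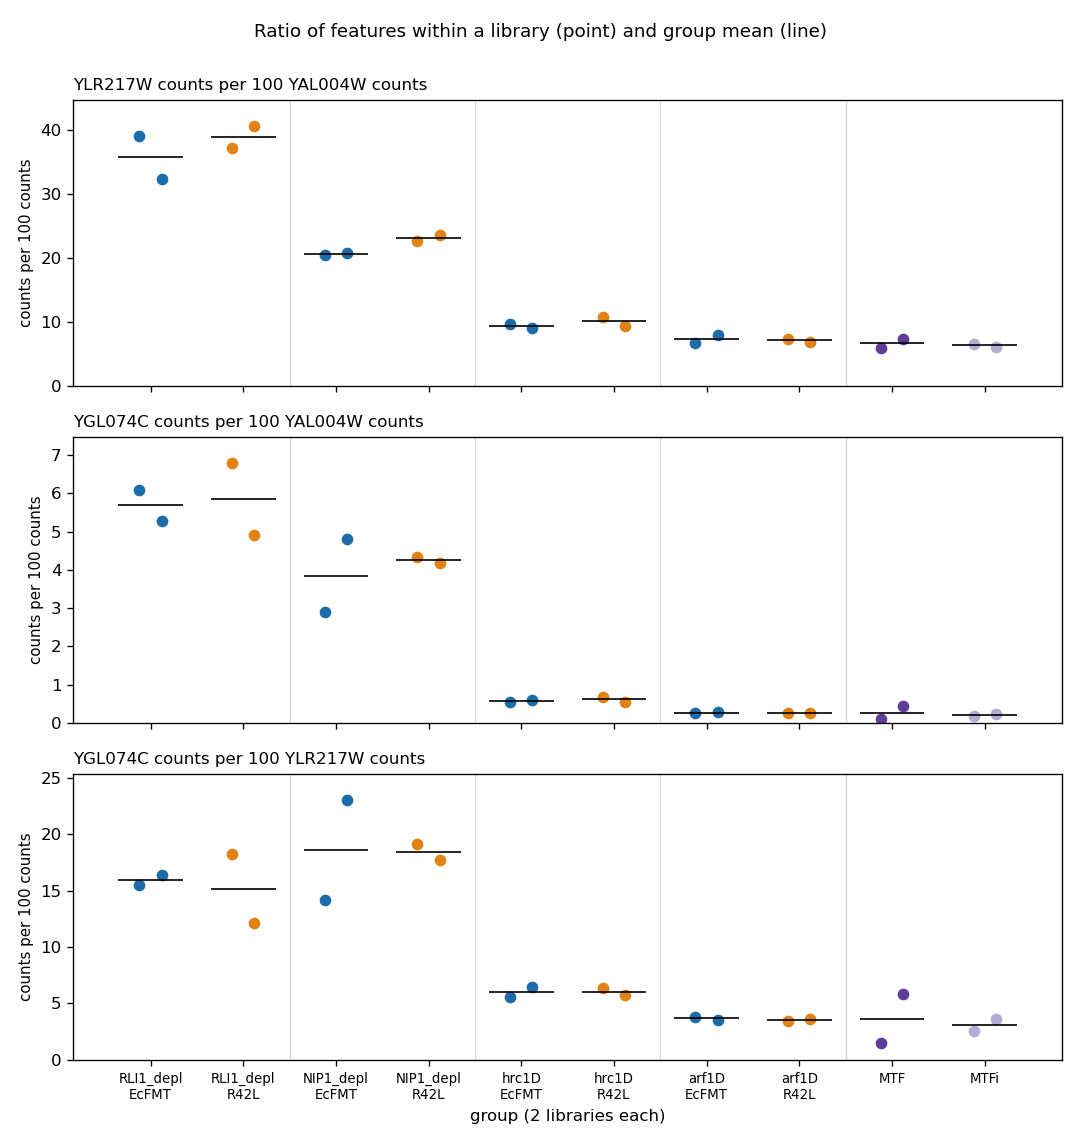
Counts of one feature per 100 counts of another within each library (points, vertical axes linear from 0) and group means (lines). YLR217W per 100 YAL004W was 37.4 on average in RLI1_depl and 7.21 in arf1D.

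The share of YGL074C moved with the share of counts on RefSeq ORFs. YGL074C had 4.04 ± 0.73 counts per 1000 RefSeq ORF counts in RLI1_depl, 5.81 ± 1.13 in NIP1_depl, 6.06 ± 1.04 in hrc1D and 4.42 ± 0.26 in arf1D (SD, n = 4), with 5.20 ± 2.55 in MTF and MTFi. These 5 means lay within a narrow band, although the mean share of the library was 10.8 times as high in RLI1_depl as in arf1D. The part of the RefSeq share in the strain differences of YGL074C was not tested. Per kb, YGL074C held 97.8 to 166 times the mean density of RefSeq ORFs by group mean, and YAL004W 841 to 35085 times.

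**Figure D5:**
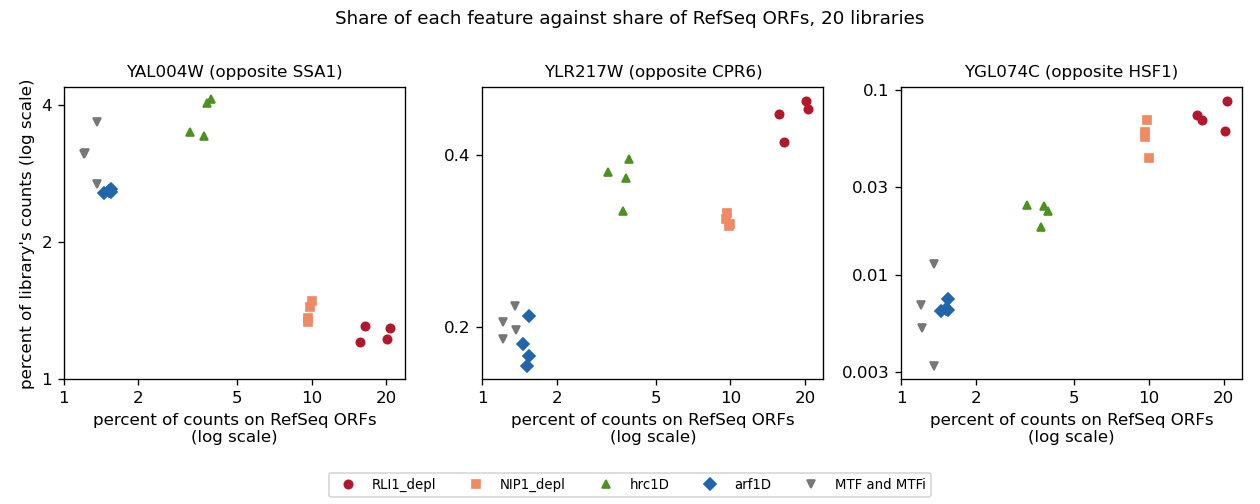
Percent of a library's counts on each feature (vertical axes, log scale) against the percent on RefSeq ORFs (horizontal axes, log scale) in 20 libraries, with symbols for the strain. YGL074C rose with the RefSeq share, which averaged 18.2% in RLI1_depl and 1.52% in arf1D, and YAL004W was low where that share was high.

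Reads under the name HSF1 itself were few, and their share was higher in each of the 3 other strains than in arf1D. Their sum was 33 counts in RLI1_depl, 32 in NIP1_depl, 88 in hrc1D, 9 in arf1D and 23 in MTF and MTFi. As a share of the library they averaged 0.0091 ± 0.0044% in RLI1_depl, 0.0053 ± 0.0032% in NIP1_depl, 0.0097 ± 0.0037% in hrc1D and 0.0005 ± 0.0007% in arf1D (SD, n = 4). The log2 difference of HSF1 from arf1D was 3.94 (SE 0.57) in RLI1_depl, 3.17 (SE 0.61) in NIP1_depl and 4.12 (SE 0.48) in hrc1D, with edgeR adjusted p of 1.45e-11, 4.76e-07 and 2.27e-16. With TMM these were 1.26, 1.06 and 3.09, of which that in NIP1_depl was not called (edgeR adjusted p = 0.132). On library totals 90.1%, 74% and 44.9% of all features were called higher in the same order. The median log2 difference of RefSeq ORFs, the class of HSF1, was 5.17 in RLI1_depl, 3.84 in NIP1_depl and 1.75 in hrc1D. On library totals HSF1 thus lay below that median in RLI1_depl and NIP1_depl and above it in hrc1D. Between RLI1_depl and hrc1D the difference was -0.18 (SE 0.41, edgeR adjusted p = 0.675), not called. YGL074C gave 3.41, 3.07 and 1.71 from arf1D in the same order on library totals. The difference between HSF1 and YGL074C was not tested, and with the strand setting unknown, reads of the pair cannot be told apart.

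YGL072C, a further feature on the other strand next to HSF1 that was picked out after its values were seen, did not rise under all 4 scalings in any of the 3 strains. It averaged 0.0135 ± 0.0031% in RLI1_depl, 0.0048 ± 0.0011% in NIP1_depl, 0.0063 ± 0.0028% in hrc1D and 0.0063 ± 0.0009% in arf1D (SD, n = 4). Its log2 difference of RLI1_depl from arf1D was 1.07 on library totals (edgeR adjusted p = 0.00103) and -1.68 with TMM, so it held no direction there. In NIP1_depl minus arf1D YGL072C was -0.40 and not called on library totals, but -2.58 with TMM, -1.74 with RLE and -1.58 in the fit outside RefSeq, all called. In hrc1D minus arf1D it was -0.07 and not called on library totals, but -1.17, -0.82 and -0.68 under those scalings, all called. YGL074C was called higher under each of 4 scalings in both comparisons. The difference between both features was not tested.

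The features whose mean share moved most like each of the 3 over the 10 groups were sought among 244 features averaging 50 or more counts per library. For YAL004W they were YLR349W, with a Pearson r of 0.97 between log2 shares, YBR089W (0.92) and YCR013C (0.91). YLR349W lies opposite DIC1, the mitochondrial dicarboxylate carrier, and YCR013C opposite PGK1, the glycolytic phosphoglycerate kinase. For YLR217W they were YPR197C (0.97), YGR265W (0.96), opposite the methionyl-tRNA synthetase gene MES1, and YOR135C (0.96). For YGL074C they were YLR374C (1.00), opposite STP3, YGL041C-B (1.00), a RefSeq ORF, and YOR282W (0.99), opposite PLP2. The 10 means share library totals and the trend in RefSeq share, and with TMM scaling the r of YPR197C was -0.05 and that of YOR282W -0.00. The ranks with TMM among the 244 features were 13, 4 and 5 for those named with YAL004W. They were 203, 9 and 86 for YLR217W, and 2, 1 and 48 for YGL074C. With TMM an r of 0.98 thus held only rank 13 for YAL004W, and an r of 0.89 rank 86 for YLR217W.

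Among the 3 features themselves, r over the 10 group means was -0.48 for YAL004W and YLR217W, -0.77 for YAL004W and YGL074C, and 0.89 for YLR217W and YGL074C. With TMM scaling these became 0.99, -0.80 and -0.80. Which of the others YLR217W moved with thus changed with the scaling.

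A list of 48 chaperone and heat shock genes was examined around the 3 features. All 48 matched a listed feature, their own names summed to 395 counts or 0.00791% of all, 17 were listed at 0 and 6 had at least 10 counts. On the other strand next to them lay 12 features, 11 of which were tested, with 309570 counts in all. YAL004W was the largest, followed by YDL228C with 134397 counts, YLR217W, and YHR063W-A with 9489. YDL228C lies opposite SSB1, an Hsp70 that binds nascent chains at the ribosome, and YHR063W-A next to SSZ1, an Hsp70 of the ribosome-associated complex.

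YDL228C averaged 0.890 ± 0.057% in RLI1_depl, 1.66 ± 0.054% in NIP1_depl, 2.62 ± 0.111% in hrc1D and 2.97 ± 0.021% in arf1D (SD, n = 4). Its log2 difference from arf1D was -1.73 in RLI1_depl, -0.84 in NIP1_depl and -0.18 in hrc1D, called by edgeR in each (adjusted p = 8.65e-232, 4.61e-63 and 0.000660) and lower under all 4 scalings. YAL004W fell in the same 2 depletion strains, and in hrc1D its share lay above arf1D on library totals, though not with TMM, where that of YDL228C lay below with both. YHR063W-A was likewise lower under all 4 scalings, at -2.69 in RLI1_depl, -1.87 in NIP1_depl and -1.61 in hrc1D on library totals.

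Of the 11 tested features opposite the list, 7 were called higher and 3 lower in RLI1_depl minus arf1D. In NIP1_depl minus arf1D these counts were 5 and 4, and in hrc1D minus arf1D 5 and 2. Over all features the rates were 90.1% higher and 4.22% lower, 74% and 6.93%, and 44.9% and 5.5%. With TMM the counts were 2 and 9, 1 and 9, and 1 and 8. The rates over all features with TMM were 51.5% and 21.8%, 40.6% and 21.8%, and 18.7% and 16.8%. With RLE the counts were 2 and 9, 2 and 9, and 2 and 7. In the fit outside RefSeq they were 2 and 8, 2 and 9, and 2 and 6, where 80.5%, 80.5% and 68.9% of features were called in either direction. Most of the 11 features were thus called lower under each scaling other than library totals. On library totals their median log2 difference was 0.75, -0.40 and 0.24 in the same order. Over all features it was 4.31, 3.14 and 1.29. Over features outside RefSeq, the class to which all 11 belong, it was 1.74, 1.08 and 0.57. Between EcFMT and R42L none of the 11 was called by edgeR in any of the 4 strains or in their mean. In MTF minus MTFi 1 was called lower, where 2.79% of all features were called.

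A list of 20 general stress genes, made up of MSN2, MSN4 and genes taken as targets of Msn2 and Msn4, held 235 counts under their own names. Of these 20 genes 4 were listed at 0. Of 5 features opposite them 3 were tested, YKL036C next to UGP1, YPR160C-A next to GPH1 and YML101C-A next to TSL1. In RLI1_depl minus arf1D 1 was called higher and 1 lower on library totals, where 90.1% of all features were called higher and 4.22% lower. With TMM 0 were called higher and 2 lower in that comparison, against 51.5% and 21.8% of all features. Under their own names GAC1, at 5.26, and GSY2, at 4.04, were the 2 genes of the list that were tested, and both were called higher there by edgeR on library totals, against 1 of them with TMM. On library totals the median log2 difference of RefSeq ORFs, their class, was 5.17 in that comparison. GAC1 thus lay near that median and GSY2 below it. GAC1 had 73 counts over the 20 libraries and GSY2 had 52. Between the enzyme forms 0 of the 3 were called by edgeR in each strain and in the mean. In MTF minus MTFi 2 were called lower, where 2.79% of all features were called. The MTF replicates were the least alike of the groups, and calls over all features fell from 39 to 11 with only the libraries compared.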

How the data were processed

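Ribosome footprints were analysed from 20 deposited tables, 1 per library. Per the submitters' processing notes, tools named for the series are STAR 2.7.2b and RSEM 1.2.31 with build R64. Each table holds the authors' expected counts, which are RSEM estimates not scaled for depth, and the authors' TPM, which are transcript shares scaled by feature length and library, per the file headers. For testing, expected counts were rounded to integers, and TPM served only as levels. Names and coordinates of RefSeq genes came from a RefSeq gene table of assembly R64, in which 6047 features matched. A 95% Wilson interval, or a limit of 3 counts where a count was 0, covers counting error only.

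Features were tested with edgeR 4.0.16 (R 4.3.3) by quasi-likelihood F tests in 1 fit of 20 libraries and 10 groups, with Benjamini-Hochberg adjustment over 1399 of 6691 protein-coding features that passed edgeR's filter at a minimum count of 10. A call is an adjusted p under 0.05. The main fit used library totals without further factors, because TMM factors, which ran from 0.367 to 3.25, move with the share of counts on RefSeq ORFs. The fit was also run on simulated counts in which all groups had the same mean profile, apart from planted changes. Such counts hold no shift in the share on RefSeq ORFs, so they do not test the choice of scaling. Their outcome is not given here. Within-library ratios and the mean difference of the forms were tested by exact permutation of libraries. Alternatives were TMM, RLE, DESeq2 1.42.0, a fit of 440 features outside RefSeq with TMM from them, no filter, all deposited features, only the libraries compared, a replicate block and leaving out each library.

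The text names the 3 features, the genes opposite, the 3 features most alike by Pearson r of log2 share (percent plus a pseudocount of 0.001), and up to 4 features with the highest counts from the chaperone list. The features and lists were chosen with earlier results of these data known. No sequence is shown.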

Additional observations from a re-analysis of the deposited data

How the results depend on the processing

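Scaling decided most strain directions of YLR217W and that of YAL004W in hrc1D, and leaving out a library mattered for small differences. All values are log2 differences. With no filter on low counts and with all deposited features, 51 of 51 results kept direction and call. With TMM, 18 reversed. Between EcFMT and R42L these were RLI1_depl, at 0.29 for YAL004W, 0.15 for YLR217W and 0.27 for YGL074C, NIP1_depl, at 0.039 for YLR217W and 0.039 for YGL074C, and the mean of 4 strains for YLR217W, at 0.087. In MTF minus MTFi they were YAL004W at -0.069 and YLR217W at -0.013. Against arf1D they were YAL004W in hrc1D at -0.57 and YLR217W at -1.44 in RLI1_depl, -1.48 in NIP1_depl and -0.14 in hrc1D. Further ones were RLI1_depl minus hrc1D for YLR217W at -1.30 and RLI1_depl minus NIP1_depl for YGL074C at -0.22. Against MTF and MTFi they were YAL004W in hrc1D at -0.87 and YLR217W at -1.57 in RLI1_depl, -1.62 in NIP1_depl and -0.27 in hrc1D. Calls lost with TMM were YGL074C against hrc1D, at 0.032 in RLI1_depl and 0.26 in NIP1_depl, and YLR217W in RLI1_depl minus NIP1_depl at 0.044.

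RLE and DESeq2 reversed the same 13 results. The RLI1_depl forms gave 0.15 with RLE and 0.15 with DESeq2 for YAL004W, 0.0096 and 0.010 for YLR217W, and 0.14 and 0.11 for YGL074C, and the mean for YLR217W 0.026 and 0.026. YAL004W gave -0.21 with both in hrc1D minus arf1D and -0.70 with both in hrc1D minus MTF and MTFi. YLR217W gave with both -0.43 in RLI1_depl and -0.63 in NIP1_depl against arf1D, -0.65 in RLI1_depl minus hrc1D, and, against MTF and MTFi, -0.76 in RLI1_depl, -0.96 in NIP1_depl and -0.10 in hrc1D. YGL074C in RLI1_depl minus NIP1_depl gave -0.068 with RLE and -0.060 with DESeq2. YLR217W in arf1D minus MTF and MTFi was called with both, at -0.33. Calls lost with DESeq2 were YGL074C in RLI1_depl minus hrc1D at 0.70, YGL074C in hrc1D minus MTF and MTFi at 0.76, and YLR217W in RLI1_depl minus NIP1_depl at 0.20.

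In the fit outside RefSeq the forms reversed for YAL004W in arf1D (-0.032) and in RLI1_depl (0.0093) and for YGL074C in RLI1_depl (0.0022). YAL004W reversed in hrc1D minus arf1D (-0.074) and hrc1D minus MTF and MTFi (-0.48). YLR217W reversed against arf1D in RLI1_depl (-0.20) and NIP1_depl (-0.47), in RLI1_depl minus hrc1D (-0.55), and against MTF and MTFi in RLI1_depl (-0.43) and NIP1_depl (-0.71), where arf1D became called (-0.23) and hrc1D lost its call (0.12). With only the libraries compared, YAL004W in arf1D minus MTF and MTFi lost its call at -0.29.

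Same-numbered replicates did not pair: over 45 pairs of groups the correlation of deviations ran from -0.253 to 0.289 and 7 exceeded 0.1. With a replicate block 50 results were the same and YAL004W between the forms of RLI1_depl was 0.00019. A crossed block in NIP1_depl and arf1D, added after seeing the data, changed none of 6 results.

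Leaving out 1 library moved MTF minus MTFi between -0.22 and 0.23 for YAL004W and between -0.94 and 0.88 for YGL074C. The forms moved between -0.094 and 0.20 for YLR217W in arf1D and, for YGL074C, between -0.060 and 0.33 in hrc1D, -0.42 and 0.27 in NIP1_depl and -0.31 and 0.23 in RLI1_depl. They moved between -0.059 and 0.054 for YAL004W in RLI1_depl, and their mean between -0.039 and 0.034 for YLR217W and -0.053 and 0.12 for YGL074C. RLI1_depl minus NIP1_depl moved between -0.19 and -0.13 for YAL004W and 0.18 and 0.52 for YGL074C, and arf1D minus MTF and MTFi between -0.34 and 0.57 for YGL074C. With TMM the likeness r was -0.049 for YPR197C and -0.0023 for YOR282W. The causes were not tested.

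Numbers of calls moved as well. MTF minus MTFi had 39 calls, 24 with TMM, 22 without filter, 11 with only the libraries compared and 17 to 34 without 1 library. The RLI1_depl forms had 37, against 20, 57 and 13 to 21 without filter, with only the libraries compared and without 1 library. The mean of the forms had 5, and 0 to 10 over the alternatives. The test of equal differences had 13, and 7 to 25. The hrc1D forms had 0, and 12 without hrc1D R42L replicate 2. The strain comparisons with arf1D had 1319 calls in RLI1_depl, 1132 in NIP1_depl and 705 in hrc1D, against 354, 354 and 303 in the fit outside RefSeq, which tests fewer features. DESeq2 gave 451 in hrc1D minus arf1D, and no filter 2158 in RLI1_depl minus arf1D. RLI1_depl minus hrc1D had 1152 and 553 with DESeq2, NIP1_depl minus hrc1D 899 and 494, and RLI1_depl minus NIP1_depl 704 and 301. Against MTF and MTFi, hrc1D had 728 and 420 with DESeq2, and arf1D 160 and 92. Depth limits YGL074C most, with 10 to 98 counts per library.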
